A study of Mus musculus with 6 samples.

Results

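Collagen genes were followed in RNA-seq libraries of integrin α6-positive epidermal cells sorted from mice at postnatal day 0. The members are the rows of the deposited table whose symbol is Col, a number, the letter a and a number, leaving out Col17a1. There were 43 of them among 17025 genes: 11 fibrillar collagens, 8 of the basement membrane (types IV, XV and XVIII) and 24 others. The cells came from cKO mice (K14Cre,Ash2lF/F), with both Ash2l alleles floxed, and from control mice (K14Cre,Ash2lF/+), with 1 floxed allele; all carried K14Cre, in which the keratin 14 promoter drives Cre recombinase in basal keratinocytes. Each group had 3 libraries; the labels do not say whether these were different animals, and p-values here reflect library-to-library spread, which may be technical. ASH2L is a shared subunit of the complexes that methylate lysine 4 of histone H3, and the series addresses its part in epidermal differentiation and hair follicle formation.

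Collagens are secreted proteins built from 3 chains wound into a triple helix. Fibrillar collagens, made chiefly by fibroblasts in the dermis, assemble into the fibres that give skin its tensile strength. Type IV collagen forms the network of the basement membrane on which basal keratinocytes sit, and type VII collagen, made largely by keratinocytes, forms the anchoring fibrils beneath it. Basal keratinocytes hold to this layer through integrin α6, the surface protein by which the cells were sorted.

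The targeted gene went against the labels. Ash2l had 30.9, 29.5 and 22.9 FPKM in the libraries labelled cKO 1, 2 and 3, against 12.4, 18.1 and 15.9 FPKM in those labelled control 1, 2 and 3, a log2(FPKM + 1) difference of 0.81 (SE 0.19, limma adjusted p = 0.0240). FPKM is fragments per kilobase of gene model, scaled to library depth. Leaving out cKO 1, cKO 2, control 1 or control 3 ended that call (adjusted p = 0.0829, 0.0810, 0.0560 and 0.0665). A value for the whole gene need not show loss of the floxed exon. Whether the labels of the groups were exchanged was not tested. Groups are named by their labels, and every direction below rests on them. The libraries held 31578875 to 36027550 fragments each. Krt5, a basal keratin gene, was at 3305 to 4876 FPKM in the libraries labelled cKO and 2249 to 3907 FPKM in those labelled control. Itga6, the sorting marker, was at 19.7 to 53.6 FPKM in libraries labelled cKO and 72.0 to 162 FPKM in those labelled control. It was not called (-1.32, SE 0.44, limma adjusted p = 0.0710). Krt15 was called higher (2.23, limma adjusted p = 0.00215) and Itgb4 lower (-1.70, limma adjusted p = 0.0437). Of the 10 keratinocyte markers, 3 had positive and 7 negative differences. Melanocyte markers summed to 178 to 392 FPKM in the libraries labelled cKO, against 2946 to 3370 FPKM in those labelled control. All 10 were called lower, where 13.6% of all genes tested were.

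Few collagen genes differed between the groups beyond the spread of the libraries. Col12a1 and Col16a1, which encode collagens that associate with other fibrils, were lower in the libraries labelled cKO, and none was called higher. Of the 43 members, 28 averaged at least 1 FPKM across the 6 libraries and were tested with limma on log2(FPKM + 1), called at a Benjamini-Hochberg adjusted p under 0.05 over all 11603 genes tested. The 2 lower calls were 7.14% of the members tested, where 13.6% of all genes tested were called lower. Against the 0 higher calls, 5.87% of all genes tested were called higher. By limma's unadjusted p under 0.05, 2 members were higher (7.14%) and 5 lower (17.9%), against 10.1% and 24.6% of all genes tested. Limma-voom on whole fragments recovered from the FPKM steps also called 0 higher and 2 lower, where it called 8.01% of all genes higher and 8.91% lower. Each share of called members lay below that of all genes tested. The differences of the 28 members had a median of 0.30, with 19 above 0, whereas the median of all genes tested was -0.17, with 36.1% above 0. Single libraries moved that median: it was 0.07 without cKO 1, 0.15 without cKO 2, 0.70 without cKO 3, 0.08 without control 1, 0.18 without control 2 and 0.56 without control 3. The groups did not overlap for 5 of the 28 members (17.9%), against 42.9% of all genes tested: Col4a5 was higher, where 12.0% of all genes tested were, and 4 were lower, where 30.9% were. Scaling by the median of ratios moved the median of all genes to 0.01 and that of the members to 0.48, with the same counts of 0 higher and 2 lower.

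**Figure D1:**
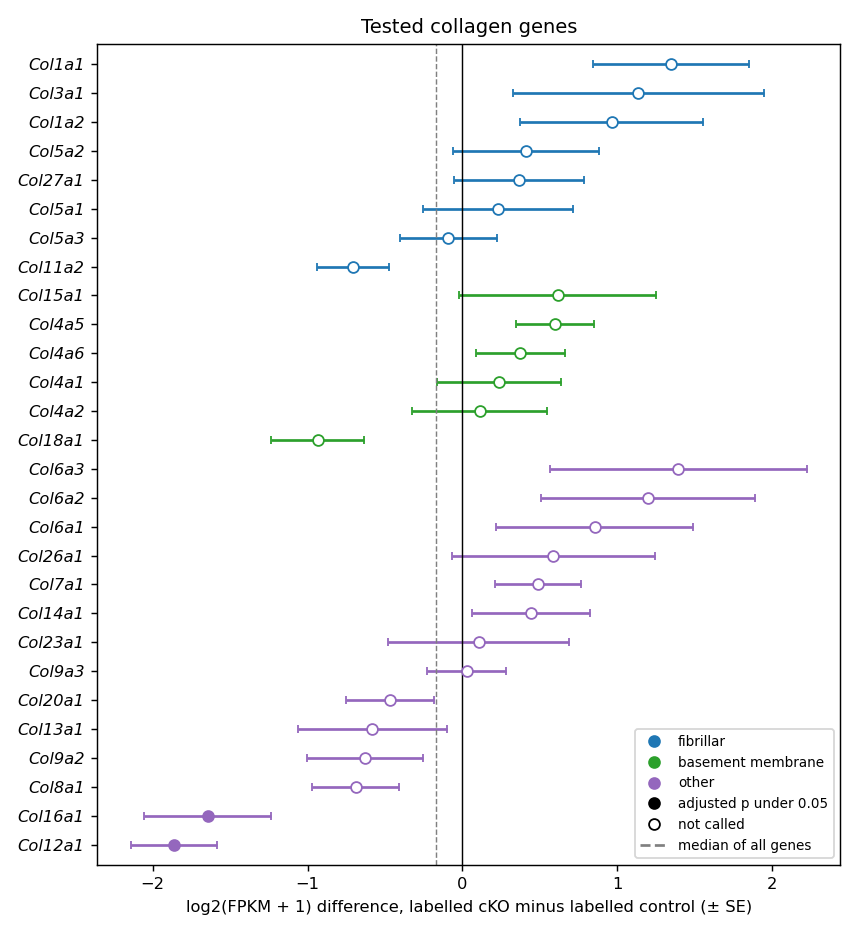
Difference in log2(FPKM + 1) between the libraries labelled cKO and those labelled control for the 28 tested collagen genes, with the SE from limma as bars; filled points had an adjusted p under 0.05. Only Col12a1 (-1.86) and Col16a1 (-1.65) are filled, and the dashed line marks the median of all genes tested (-0.17).

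Among the fibrillar collagens none of the 8 tested was called in either direction by limma or limma-voom; by limma's unadjusted p under 0.05, 1 was higher and 1 lower, where 10.1% and 24.6% of all genes tested were. Their median difference was 0.39, against -0.17 over all genes tested. Col3a1, the chain of type III collagen and the most abundant of them, was at 177, 160 and 64.8 FPKM in the libraries labelled cKO 1, 2 and 3, against 13.8, 69.8 and 167 FPKM in those labelled control 1, 2 and 3. The groups overlapped, with the library labelled control 3 as high as cKO 1 and 2 and the library labelled cKO 3 below control 2 (log2 difference 1.14, SE 0.81, limma adjusted p = 0.355). Col1a2, a chain of type I collagen, the main fibre of the dermis, was at 86.0, 80.6 and 31.6 FPKM in the libraries labelled cKO, against 12.7, 32.5 and 66.8 FPKM in those labelled control (0.97, SE 0.59, limma adjusted p = 0.283).

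Col1a1, the partner chain of type I collagen, came closest to a call among the members with a positive difference. Its values were 46.4, 45.3 and 20.6 FPKM in the libraries labelled cKO 1, 2 and 3, against 7.91, 9.36 and 30.2 FPKM in those labelled control 1, 2 and 3. The means were 37.4 ± 14.6 and 15.8 ± 12.5 FPKM (SD, n = 3 each), a log2 difference of 1.35 (SE 0.50, limma adjusted p = 0.0997). The library labelled control 3 lay above cKO 3 and was the only point of overlap. Without the library labelled control 3 the gene was called (1.91, limma adjusted p = 0.0247).

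Col5a2, a chain of type V collagen, which starts and limits the width of type I fibrils, was at 39.6, 38.9 and 14.2 FPKM in the libraries labelled cKO, against 12.4, 19.8 and 36.5 FPKM in those labelled control, and Col5a1 was close to it in each library. The groups overlapped over almost their whole range (Col5a2 0.41, SE 0.47, limma adjusted p = 0.573). Col11a2, a chain of type XI collagen best known from cartilage, was the only fibrillar gene tested whose groups did not overlap. It was at 1.36, 1.56 and 0.968 FPKM in the libraries labelled cKO, against 2.75, 3.40 and 2.12 FPKM in those labelled control (-0.71, SE 0.23, limma adjusted p = 0.0692). The call was made when limma was fitted with no mean-variance trend (adjusted p = 0.0431). Col27a1 and Col5a3 completed the class, at differences of 0.37 and -0.09 with overlapping groups.

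**Figure D2:**
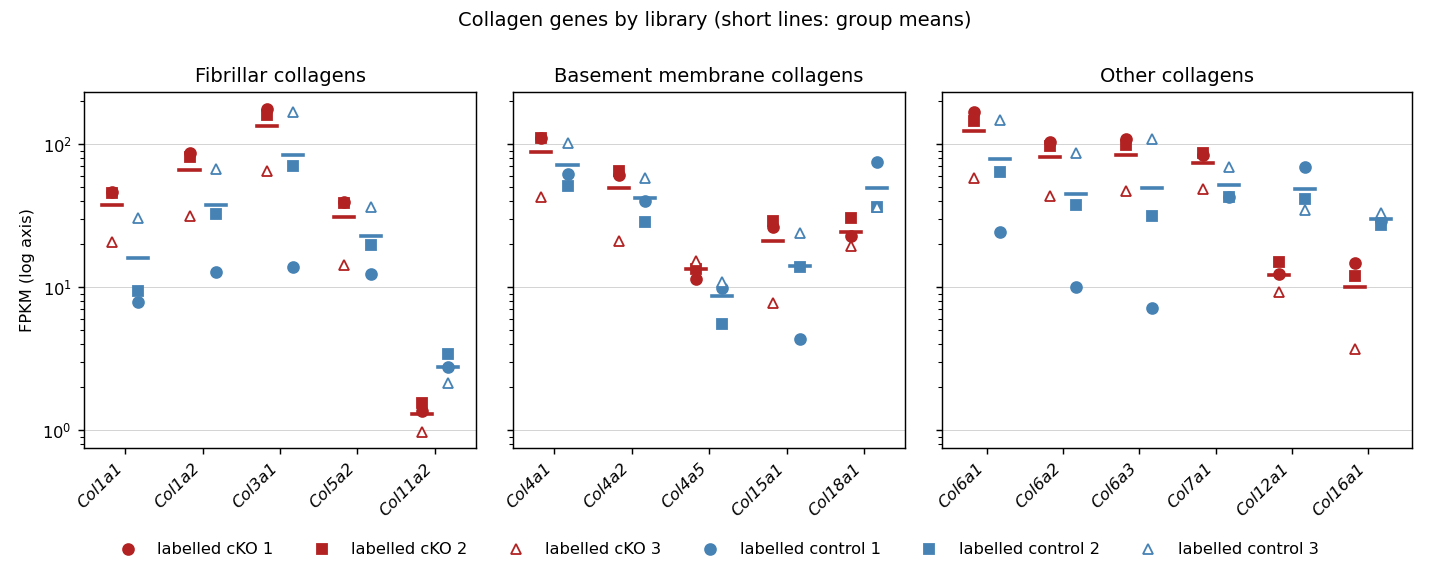
FPKM on a log axis for the 16 collagen genes described library by library, with 1 point per library, labelled cKO on the left and labelled control on the right of each gene, and short lines for group means. The library labelled control 1 is the lowest point for Col3a1, Col1a2 and type VI chains, while for Col12a1 and Col16a1 all libraries labelled cKO lie below all those labelled control.

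None of the 6 basement membrane collagens tested was called either, by limma or limma-voom; by limma's unadjusted p under 0.05, 1 was higher and 1 lower, against the same 10.1% and 24.6% of all genes. Col4a1 and Col4a2, whose products form the common type IV collagen network, had overlapping groups. Col4a1 measured 110, 111 and 42.9 FPKM in the libraries labelled cKO 1, 2 and 3, against 61.7, 50.7 and 102 FPKM in those labelled control 1, 2 and 3. Col4a2 measured 60.9, 65.0 and 20.9 FPKM in the libraries labelled cKO, against 39.8, 28.6 and 57.8 FPKM in those labelled control. For both genes the library labelled cKO 3 was the lowest of the 6 (Col4a1 0.24, SE 0.40, limma adjusted p = 0.708; Col4a2 0.11, SE 0.44, limma adjusted p = 0.882). The pair lies head to head and their models overlap in the RefSeq table of GRCm38, so reads at their shared start cannot be assigned without strand.

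Col4a5 and Col4a6, a neighbouring pair whose products build a further type IV network found under epidermis, had a different order of libraries. Col4a5 was at 11.3, 13.4 and 15.2 FPKM in the libraries labelled cKO, against 9.77, 5.50 and 10.8 FPKM in those labelled control. The groups did not overlap and the library labelled cKO 3 was the highest, but the difference of 0.60 (SE 0.25) did not pass the test (limma adjusted p = 0.139). Col4a6 was at 6.09 to 6.93 FPKM in the libraries labelled cKO and 3.35 to 8.04 FPKM in those labelled control (0.37, SE 0.29, limma adjusted p = 0.388).

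Col18a1 and Col15a1 encode the multiplexins, collagens of the basement membrane zone; the C-terminal part of type XVIII collagen is released as endostatin. Col18a1 was at 22.8, 30.2 and 19.3 FPKM in the libraries labelled cKO, against 74.4, 36.3 and 36.4 FPKM in those labelled control. All 3 libraries labelled cKO lay below the others, with a difference of -0.93 that did not pass the test (SE 0.30, limma adjusted p = 0.0640, exact permutation p = 0.1, two-sided, the smallest that 3 against 3 can give). Col15a1 was at 26.2, 29.0 and 7.69 FPKM in the libraries labelled cKO, against 4.35, 13.8 and 23.8 FPKM in those labelled control (0.62, SE 0.64, limma adjusted p = 0.527), so the groups overlapped and the library labelled control 1 was lowest.

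The 14 other collagens tested held both calls. These were 14.3% of the class, close to the 13.6% of all genes tested that were called lower. Col12a1 encodes type XII collagen, a fibril-associated collagen that binds along type I fibrils. It was at 12.4, 15.0 and 9.16 FPKM in the libraries labelled cKO 1, 2 and 3, against 68.6, 41.1 and 34.8 FPKM in those labelled control 1, 2 and 3. The means were 12.2 ± 2.92 and 48.2 ± 18.0 FPKM (SD, n = 3 each), and the log2 difference was -1.86 (SE 0.28, limma adjusted p = 0.00484). The call held under all 16 alternatives, with differences from -2.06 to -1.41 and adjusted p from 0.00243 to 0.0232. Unlike type I and III chains, Col12a1 was highest in the library labelled control 1.

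Col16a1 encodes type XVI collagen, a minor fibril-associated collagen found near the dermo-epidermal junction. Its values were 14.6, 11.9 and 3.71 FPKM in the libraries labelled cKO, against 29.0, 27.3 and 33.2 FPKM in those labelled control (means 10.1 ± 5.68 and 29.8 ± 3.01 FPKM, SD, n = 3 each). The libraries labelled control lay close together and all above those labelled cKO, and the difference was -1.65 (SE 0.41, limma adjusted p = 0.0299). The gene was no longer called when control 1, control 2 or control 3 was left out (limma adjusted p = 0.0780, 0.0870 and 0.0938) and with no filter on low values (adjusted p = 0.0675). Melanocyte markers, Vim (112 to 475 FPKM in the libraries labelled cKO and 1085 to 1502 FPKM in those labelled control) and the summed Schwann cell markers (77.3 to 110 FPKM in libraries labelled cKO and 187 to 272 FPKM in libraries labelled control) were lower in the same libraries as Col12a1 and Col16a1. Any gene called lower shares this direction, and 13.6% of all genes tested were called lower. The part of these markers in the results was not tested.

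Type VI collagen, a beaded filament that surrounds cells and basement membranes, was the most abundant of the other collagens. Col6a1 was at 167, 145 and 58.3 FPKM in the libraries labelled cKO 1, 2 and 3, against 24.3, 64.2 and 148 FPKM in those labelled control 1, 2 and 3. Col6a3 was at 108, 97.9 and 47.1 FPKM in the libraries labelled cKO, against 7.10, 31.3 and 108 FPKM in those labelled control, so the library labelled control 3 equalled cKO 1 while control 1 was 15.2-fold below control 3. Col6a2 was at 104, 96.4 and 43.1 FPKM in the libraries labelled cKO, against 10.1, 37.6 and 86.1 FPKM in those labelled control. The differences of 0.85 (SE 0.64), 1.39 (SE 0.83) and 1.20 (SE 0.69) for Col6a1, Col6a3 and Col6a2 did not pass the test (limma adjusted p = 0.376, 0.270 and 0.257).

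Col7a1, the anchoring fibril collagen, was at 84.4, 86.8 and 48.4 FPKM in the libraries labelled cKO, against 42.4, 42.7 and 69.7 FPKM in those labelled control (0.49, SE 0.28, limma adjusted p = 0.250). It varied less than type I, III and VI chains, by 2.05-fold from the lowest to the highest library. The remaining 8 of the 14 other collagens tested had differences from -0.69 (Col8a1, a network collagen) to 0.59 (Col26a1), each with overlapping groups. Col8a1 was called lower, and Col14a1 and Col4a6 higher, when only the libraries labelled cKO 1 and 2 and control 2 and 3 were fitted (-0.64, 0.61 and 0.65, limma adjusted p = 0.0373, 0.0367 and 0.0311). Col12a1 and Col16a1 were called there as well. That fit called 2 of 28 members higher and 3 lower, where 10.1% of all genes tested were called higher and 20.7% lower.

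The sequences before the start sites are shown for Col16a1, which was called, for Col18a1 and Col4a5, whose groups did not overlap and stood in opposite order, and for Col1a2, which had the library pattern of the type I and III chains. They are RefSeq sequences of GRCm38.p6, another build than the GRCm39 named for the files. Each covers 200 bases, from 250 to 51 bases before the annotated start, 5′ to 3′ on the strand of the gene. Capitals mark the CCAAT box (CCAAT) and the GC box (GGGCGG), searched on both strands.
Col16a1, chr4:130047590-130047789, plus strand: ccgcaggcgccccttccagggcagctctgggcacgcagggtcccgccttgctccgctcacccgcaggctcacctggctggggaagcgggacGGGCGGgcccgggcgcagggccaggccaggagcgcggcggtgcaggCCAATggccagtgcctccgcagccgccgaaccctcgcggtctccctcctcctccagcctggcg
Col18a1, chr10:77166581-77166780, minus strand: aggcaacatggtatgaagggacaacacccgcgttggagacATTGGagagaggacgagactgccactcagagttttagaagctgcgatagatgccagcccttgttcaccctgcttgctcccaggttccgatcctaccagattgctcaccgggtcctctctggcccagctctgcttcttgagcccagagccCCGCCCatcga
Col4a5, chrX:141475169-141475368, plus strand: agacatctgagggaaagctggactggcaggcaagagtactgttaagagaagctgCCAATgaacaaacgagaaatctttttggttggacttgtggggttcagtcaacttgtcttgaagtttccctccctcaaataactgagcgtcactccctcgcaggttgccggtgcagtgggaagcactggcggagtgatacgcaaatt
Col1a2, chr6:4505368-4505567, plus strand: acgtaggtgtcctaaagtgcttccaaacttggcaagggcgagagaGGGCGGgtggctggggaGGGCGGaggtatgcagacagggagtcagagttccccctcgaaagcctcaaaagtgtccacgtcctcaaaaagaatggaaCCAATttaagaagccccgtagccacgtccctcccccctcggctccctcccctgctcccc

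Each of these 4 windows held 1 CCAAT box. A GC box was found once in the windows of Col16a1 and Col18a1 and in 2 places in that of Col1a2, and the window of Col4a5 held none. The window of Col16a1 was the richest in G and C, at 77% of bases, and also lies within the model of Gm12963, a long non-coding RNA gene; that of Col4a5 was at 49.5%. Over all 37 windows of the 34 collagen genes matched in the promoter table, 27% held a CCAAT box and 48.6% a GC box, against 28.4% and 24.6% of 32851 windows of all genes. GC boxes stood in 6 of 8 fibrillar, 2 of 8 basement membrane and 10 of 21 other collagen windows. The AP-1 site (TGANTCA) was found in 1 collagen window, which is 2.70% against 5.57% of all windows. Matches are letters in a window and were not tested as binding sites.

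The libraries ordered the abundant collagens in 1 recurring way, which was noticed in the data and is given without a test. The libraries labelled cKO 1 and 2 both stood above cKO 3, control 1 and control 2 in 16 of the 28 members tested (57.1%). The same held in 15.7% of all genes tested. The libraries labelled cKO 1 and 2 were the most alike of all pairs, so their agreement adds little. The share was 6 of 8 for fibrillar, 3 of 6 for basement membrane and 7 of 14 for other collagens. The lowest library was the one labelled cKO 3 in 13 members and control 1 in 11, that is 46.4% and 39.3%, against 44% and 16.2% of all genes tested. Summed fibrillar collagens reached 399, 373 and 148 FPKM in the libraries labelled cKO 1, 2 and 3, against 71.4, 158 and 351 FPKM in those labelled control 1, 2 and 3. Basement membrane collagens summed to 237, 255 and 113 FPKM in the libraries labelled cKO, against 198, 138 and 235 FPKM in those labelled control. All 43 members together made up 0.128 to 0.316% of all FPKM in libraries labelled cKO, against 0.140 to 0.324% in libraries labelled control.

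As a sum without Vim, fibroblast markers were also highest in the libraries labelled cKO 1, cKO 2 and control 3, and lowest in cKO 3. Their mean log2(FPKM + 1) was instead lowest in control 1, at 2.16 against 2.24 in cKO 3. Single markers did not all follow the order of the sum: Dcn was at 33.9 FPKM in control 3 and 48.7 FPKM in control 1. Without Vim, the 15 markers summed to 316, 292 and 90.0 FPKM in the libraries labelled cKO 1, 2 and 3, against 127, 164 and 265 FPKM in those labelled control 1, 2 and 3. In the library labelled control 1, Twist2, Crabp1 and Mfap5 were listed at 0. In bulk libraries such as these, fewer cells of a type and less RNA per cell cannot be told apart. Relative to those 15 markers, Col1a1, Col1a2 and Col3a1 together stood at 0.978, 0.976 and 1.30 in the libraries labelled cKO, against 0.271, 0.681 and 0.998 in those labelled control. The groups still overlapped on this scale, and the library labelled control 1 remained the lowest. Vim alone held most of the marker sum and was called lower (-2.24, limma adjusted p = 0.0186). With it, the 16 markers summed to 791, 691 and 202 FPKM in the libraries labelled cKO, against 1212, 1666 and 1648 FPKM in those labelled control, and the same collagens stood at 0.391 to 0.579 in libraries labelled cKO, against 0.0284 to 0.161 in libraries labelled control.

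Of 14 fibroblast markers tested, Vim was the only one called (7.14% lower). Over all genes tested, 5.87% were called higher and 13.6% lower. Endothelial markers summed to 3.29 to 10.4 FPKM in the libraries labelled cKO and 11.5 to 16.2 FPKM in those labelled control. Of 5 tested, 2 were called lower (40%). Mural cell markers summed to 51.0 to 75.8 FPKM in the libraries labelled cKO and 39.5 to 47.6 FPKM in those labelled control. Of 5 tested, Notch3 was called higher (20%) and Cspg4 and Acta2 lower (40%). Notch3, which keratinocytes also express, held most of the mural sum in the libraries labelled cKO. Without it, the other 9 mural markers summed to 14.5, 15.0 and 5.44 FPKM in the libraries labelled cKO 1, 2 and 3, against 29.8, 25.9 and 22.9 FPKM in those labelled control 1, 2 and 3, a sum chosen after seeing the data. Immune markers summed to at most 5.09 FPKM in the libraries labelled cKO and 5.59 FPKM in those labelled control, with 1 tested and not called. Of 6 Schwann cell markers tested 2 were called lower (33.3%), Sox10, which melanocytes also express, and Foxd3. Of 10 keratinocyte markers 1 was called higher (10%) and 1 lower (10%). The part of these cell types in the collagen values was not tested.

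**Figure D3:**
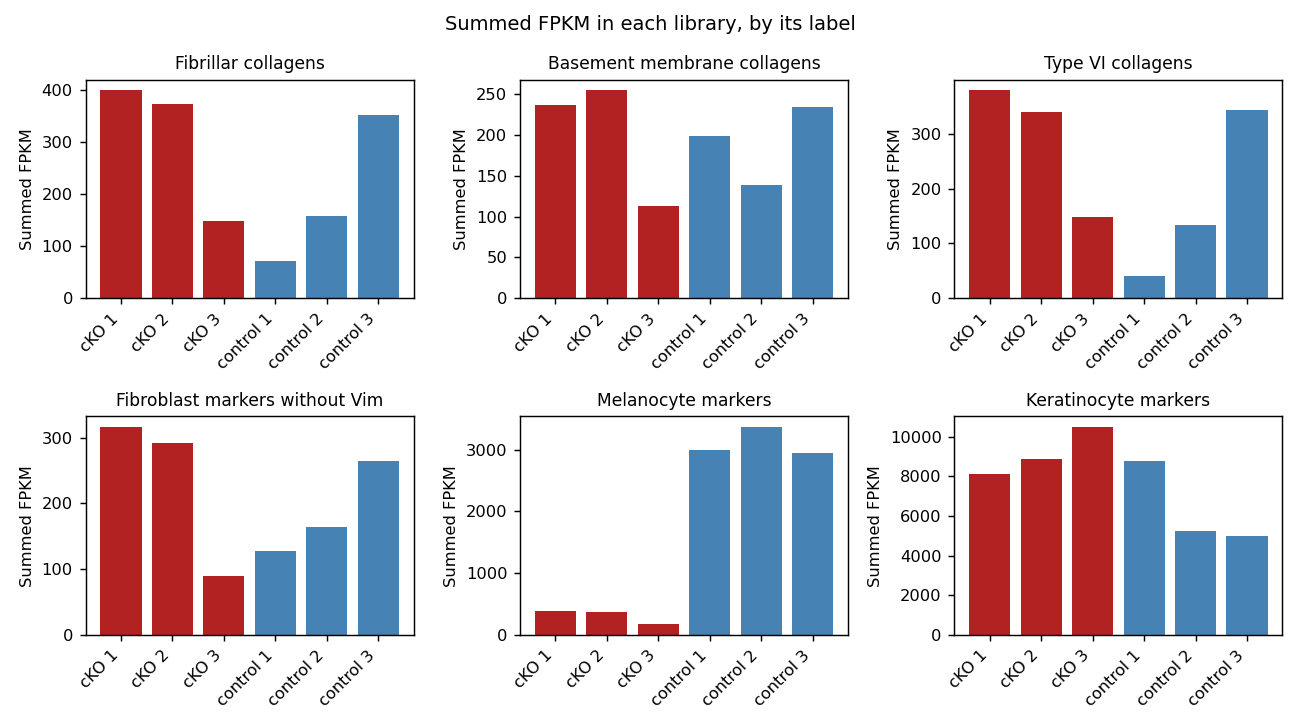
Summed FPKM in each of the 6 libraries for 3 collagen groups (top) and for fibroblast markers without Vim, melanocyte markers and keratinocyte markers (bottom), with libraries labelled cKO on the left. Fibrillar and type VI collagens and fibroblast markers are high in the libraries labelled cKO 1, cKO 2 and control 3 and lower in the other 3, whereas melanocyte markers split by label.

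The ratio between chains of 1 collagen varied less over the libraries than the chains themselves in most pairs, and hardly less for Col4a5 and Col4a6. The FPKM of Col4a1 over that of Col4a2 came to 1.81, 1.70 and 2.05 in the libraries labelled cKO 1, 2 and 3, against 1.55, 1.78 and 1.76 in those labelled control 1, 2 and 3, while Col4a1 alone varied by 2.58-fold and Col4a2 by 3.10-fold. Col5a1 over Col5a2 was 0.793 to 0.903 in libraries labelled cKO, against 0.814 to 1.15 in libraries labelled control, with each gene varying by 3.20-fold. Col1a1 over Col1a2 stood at 0.540, 0.562 and 0.651 in the libraries labelled cKO, against 0.624, 0.288 and 0.453 in those labelled control. Col4a5 over Col4a6 ranged from 1.86 to 2.19 in libraries labelled cKO, against 1.22 to 2.72 in libraries labelled control, a span of 2.23-fold where Col4a6 alone spanned 2.40-fold. Type I collagen is usually made of 2 chains of Col1a1 product and 1 of Col1a2 product, and in none of the libraries did the Col1a1 FPKM exceed that of Col1a2.

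Type VI chains gave the 1 ratio with separate groups. Col6a1 over Col6a2 was 1.61, 1.50 and 1.35 in the libraries labelled cKO, against 2.42, 1.71 and 1.72 in those labelled control. All 3 ratios in the libraries labelled cKO were lower (exact permutation p = 0.1, two-sided, the smallest possible). Col6a3 over Col6a1 was 0.648, 0.677 and 0.808 in the libraries labelled cKO, against 0.292, 0.487 and 0.731 in those labelled control, with overlap (exact permutation p = 0.3). Col3a1 over Col1a2 varied by library rather than by label, from 1.09 in the library labelled control 1 to 2.51 in control 3, with 1.98 to 2.06 in those labelled cKO (exact permutation p = 1). The p-values of the 8 ratios computed were not adjusted, since none can pass a threshold of 0.05 with 3 against 3.

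The other 15 members had a mean under 1 FPKM and were not tested: 3 fibrillar, 2 basement membrane and 10 others. Their means ran from 0.00779 to 0.903 FPKM. The filter fell between Col5a3 (1.53 FPKM) and Col11a1 (0.903 FPKM). Several are known from cartilage. Acan, the core of the main cartilage proteoglycan, was at 0.0144 to 0.171 FPKM in the libraries labelled cKO and 0 to 0.174 FPKM in those labelled control, with overlap, and Hapln1 had at most 4 fragments in any library. Matn1, a cartilage matrix protein, had 0 fragments in each of the libraries labelled cKO, against 85, 9 and 38 in those labelled control 1, 2 and 3. The muscle gene Tnnt3 was the only marker of the cartilage and muscle list that could be tested and was called lower, while Acta1, also a muscle gene, had 22, 25 and 10 fragments in the libraries labelled cKO, against 6, 0 and 0 in those labelled control. The list summed to 0.482 to 1.16 FPKM in the libraries labelled cKO and 1.53 to 5.92 FPKM in those labelled control. Tnnt3 alone gave 4.28, 1.76 and 0.756 FPKM in those labelled control 1, 2 and 3, and 0.0950 to 0.102 FPKM in those labelled cKO. The sums of the groups were separate only with Tnnt3 counted.

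Col2a1, the main fibrillar collagen of cartilage, had 11, 56 and 30 fragments in the libraries labelled cKO 1, 2 and 3, against 116, 296 and 349 in those labelled control 1, 2 and 3. With no filter on low values it was tested and called lower (-0.97, limma adjusted p = 0.0437), where 7.87% of the 17025 genes then tested were called lower. Col9a1, a partner of type II fibrils, had 0 fragments in each of the libraries labelled cKO, where a count of 0 allows up to 3 fragments per library, against 2, 27 and 8 in those labelled control. Col11a1 had 427, 409 and 230 fragments in the libraries labelled cKO, against 32, 33 and 282 in those labelled control, with overlap between cKO 3 and control 3. Col8a2, a network collagen, had 9, 8 and 6 fragments in the libraries labelled cKO and 0 in each of those labelled control. Col4a4, a chain of the kidney type IV network, had 2, 15 and 0 fragments in the libraries labelled cKO, against 30, 59 and 22 in those labelled control. Matn1 was low in the libraries labelled cKO, as Col2a1 and Col9a1 were. Among those labelled control, Matn1 was highest in control 1, where Col2a1 and Col9a1 were lowest. The part of Matn1 in their values was not tested. For Col8a2, Col9a1 and Col4a4 some libraries lay at or under the floor of 3 fragments, whereas Col2a1 and Col11a1 lay above it in all 6. The other 10 of these genes had overlapping groups. The sparsest of them, Col4a3, Col6a6, Col10a1 and Col22a1, had at most 10 fragments in any library labelled cKO and 23 in any labelled control. In the RefSeq table Col4a3 and Col4a4 overlap each other, Col10a1 overlaps Nt5dc1 and the tested Col9a3 overlaps Tcfl5, so the reads of these collagens, the separate groups of Col4a4 included, are uncertain.

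Calls among genes of collagen synthesis and folding were about as frequent as among all genes tested. Of 18 synthesis and folding genes tested, P3h4 was higher and Plod1 and Plod3 lower in the libraries labelled cKO, 5.56% and 11.1% of the list, against 5.87% and 13.6% of all genes tested, with a median difference of -0.45 against -0.17. Plod1 and Plod3 encode lysyl hydroxylases, which hydroxylate lysines that later form crosslinks, and P3h4 encodes a partner of this reaction. P3h4 was at 33.9, 30.9 and 34.9 FPKM in the libraries labelled cKO, against 13.9, 9.94 and 14.7 FPKM in those labelled control (1.32, SE 0.18, limma adjusted p = 0.00341). Plod3 was at 9.30, 7.80 and 6.14 FPKM in the libraries labelled cKO, against 27.2, 17.7 and 19.8 FPKM in those labelled control (-1.36, SE 0.22, limma adjusted p = 0.00617). Plod1 was at 9.25, 9.49 and 3.58 FPKM in the libraries labelled cKO, against 26.4, 19.6 and 27.5 FPKM in those labelled control (-1.68, SE 0.33, limma adjusted p = 0.0131), and was not called when control 3 was left out (adjusted p = 0.0525). Serpinh1, the collagen chaperone HSP47, was at 45.5 to 77.0 FPKM in the libraries labelled cKO and 78.8 to 120 FPKM in those labelled control without a call (-0.66, SE 0.23, limma adjusted p = 0.0800).

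Of 9 processing and crosslinking genes tested, 1 was higher (11.1%) and 2 lower (22.2%), against 5.87% and 13.6% of all genes tested, with a median of -0.16; at this list size a single gene moves the share by 11.1 points. Adamts14, a protease that removes the N-propeptide of fibrillar procollagens, was at 24.4, 23.8 and 18.0 FPKM in the libraries labelled cKO, against 7.15, 5.15 and 6.42 FPKM in those labelled control (1.67, SE 0.19, limma adjusted p = 0.00210). Loxl3, a lysyl oxidase-like enzyme of crosslinking, was at 1.94, 1.20 and 0.668 FPKM in the libraries labelled cKO, against 12.4, 19.8 and 12.2 FPKM in those labelled control (-2.80, SE 0.28, limma adjusted p = 0.00156). Pcolce2, an enhancer of procollagen C-proteinase, was at 0.283 to 1.23 FPKM in the libraries labelled cKO and 3.06 to 7.70 FPKM in those labelled control (-1.78, limma adjusted p = 0.0119). For each of these 3 genes the groups were separate, and each kept its call under every alternative that tested it.

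Among 6 collagen receptors tested Itgb1, the shared β1 chain of the collagen-binding integrins, was called lower, and the discoidin receptor genes Ddr1 and Ddr2 were not called; 1 of 6 is 16.7%, against 13.6% of all genes tested called lower. Itgb1 was at 73.2, 76.2 and 28.9 FPKM in the libraries labelled cKO, against 199, 156 and 143 FPKM in those labelled control (-1.57, SE 0.35, limma adjusted p = 0.0201). Itgb1 was not called when control 1, 2 or 3 was left out (limma adjusted p = 0.0694, 0.0695 and 0.0530) and with no filter on low values (adjusted p = 0.0517). No receptor was called higher by limma or limma-voom, where 5.87% and 8.01% of all genes tested were. At limma's unadjusted p under 0.05, 0 of 6 were higher, against 10.1% of all genes tested. With 6 genes, such counts say little.

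Of 7 proteoglycans and fibril partners tested, Sparc and Podn were lower (28.6%, against 13.6% of all genes tested). By limma, limma-voom and limma's unadjusted p under 0.05, 0 were higher, where 5.87%, 8.01% and 10.1% of all genes tested were. Sparc, a collagen-binding matricellular protein, was at 89.6, 80.1 and 28.4 FPKM in the libraries labelled cKO, against 278, 263 and 255 FPKM in those labelled control (-2.15, SE 0.38, limma adjusted p = 0.00933). Podn was called in the 6 libraries (-1.15, limma adjusted p = 0.0331) but in only 6 of 15 alternatives, with adjusted p of 0.0898 when cKO 2 was left out, 0.0563 for cKO 3, 0.0923 for control 2 and 0.102 for control 3.

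Of 14 basement membrane partners tested, Fras1 was higher (7.14%) and Lama4 and Agrn lower (14.3%), close to the 5.87% and 13.6% of all genes tested. Lama4, a laminin chain best known from vessels and muscle, was at 3.01, 3.70 and 1.32 FPKM in the libraries labelled cKO, against 18.7, 20.3 and 16.6 FPKM in those labelled control (-2.47, SE 0.28, limma adjusted p = 0.00196). Agrn, a basement membrane proteoglycan, was at 65.7, 66.8 and 20.3 FPKM in the libraries labelled cKO, against 139, 117 and 126 FPKM in those labelled control (-1.48, SE 0.41, limma adjusted p = 0.0420), and its call was lost without any 1 library labelled control (adjusted p = 0.108 to 0.110). Fras1, which links embryonic epidermis to its basement membrane, was at 10.9, 11.1 and 11.9 FPKM in the libraries labelled cKO, against 7.14, 6.21 and 6.30 FPKM in those labelled control (0.70, SE 0.16, limma adjusted p = 0.0210). Fras1 was no longer called when cKO 1, cKO 2, control 2 or control 3 was left out (adjusted p = 0.0719, 0.0764, 0.0793 and 0.0698). The genes called lower in these lists were low in the same libraries as the melanocyte markers. That follows from the call, and 13.6% of all genes tested were called lower. The part of melanocytes was not tested.

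**Figure D4:**
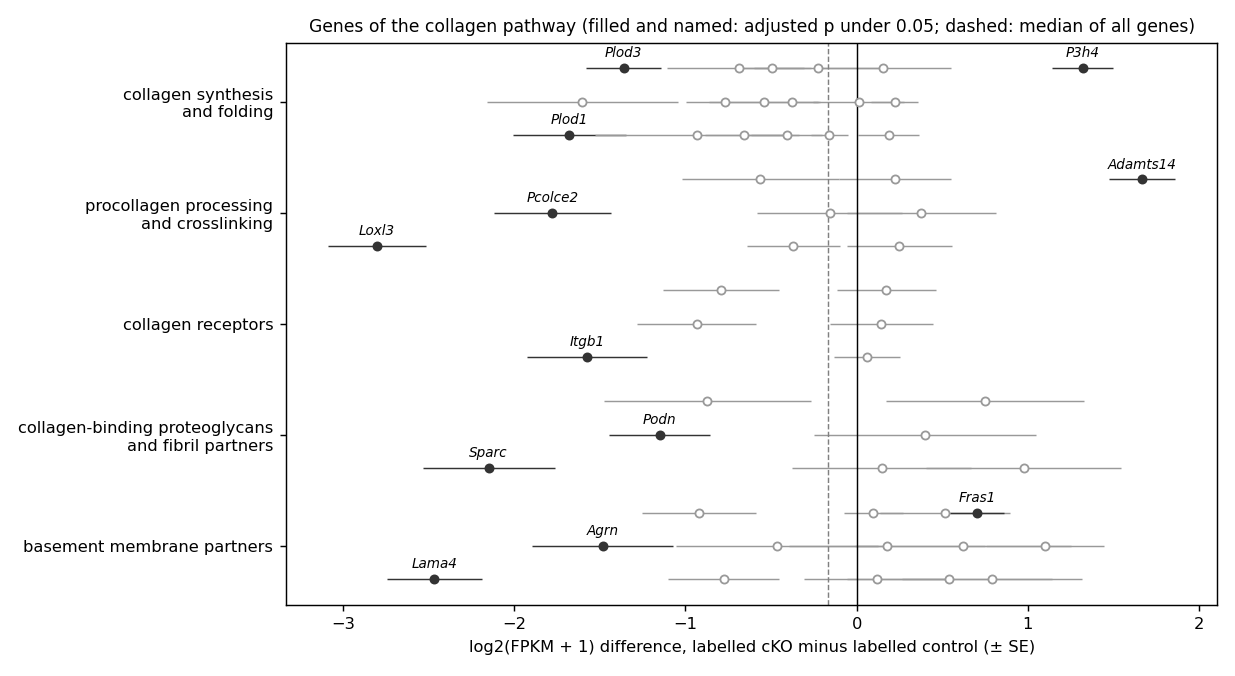
Difference in log2(FPKM + 1) between the libraries labelled cKO and those labelled control for the tested genes of 5 collagen-related lists, with the SE from limma as bars; filled, named points had an adjusted p under 0.05. Adamts14 (1.67), P3h4 (1.32) and Fras1 (0.70) lie to the right and 9 genes to the left, from Loxl3 (-2.80) to Podn (-1.15).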

How the data were processed

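Per the file headers, the authors deposited FPKM values for 17025 genes in 1 table. Tools named in the submitters' processing notes, with no version, are fastp, HISAT2 and HTSeq, with build GRCm39; annotation, gene filter and strand setting are not given there. Low values were whole multiples of 1 fragment, and whole fragments were recovered for 17025 genes within a relative tolerance of 1e-09. No pair of libraries agreed within sampling noise (lowest chi-square per gene 14.2, labelled cKO 1 and 2). The chi-square per gene was 234 and 230 for cKO 1 and cKO 2 against cKO 3. Among the libraries labelled control it was 48.7 to 126.

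The 11603 genes averaging at least 1 FPKM were fitted on log2(FPKM + 1) with limma 3.58.1 (R 4.3.3), with a trend of variance on mean and no covariate, and p-values were Benjamini-Hochberg adjusted. Differences on this scale understate changes of low genes. Fits were also run on simulated data with independent noise for each gene. Shifts shared by many genes of a library were not simulated, so that run cannot show how the fits behave with them. Members, lists and alternatives were chosen with earlier results of these data known. Described library by library were members that were called, members of at least 1 FPKM whose groups did not overlap, the 4 most abundant of each class, and called genes of 5 collagen-related lists; Col5a1, Col5a3, Col27a1, Col4a6, Col8a1, Col14a1, Col26a1, Serpinh1, the low members and the marker genes named were added after their values were seen. Marker lists covered fibroblast, endothelial, mural, Schwann, melanocyte, immune, cartilage and muscle, and keratinocyte genes. The fibroblast sum without Vim and the mural sum without Notch3 were chosen after seeing the data. Figures used matplotlib 3.10.9.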

Additional observations from a re-analysis of the deposited data

How the results depend on the processing

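Counts give the calls higher, then lower, in libraries labelled cKO; the 4 libraries are those labelled cKO 1 and 2 and control 2 and 3. For all genes tested, 681 and 1576 became 998 and 1054 with scaling by the median of ratios, 929 and 1034 with limma-voom, 1174 and 2402 in the 4 libraries, and 432 and 893 with the replicate block; leaving out 1 library gave 390 to 715 and 712 to 1448. Collagen calls were 0 to 1 higher and 1 to 2 lower with 1 library left out, that is 0 to 1 higher among fibrillar and 1 to 2 lower among other collagens. In the 4 libraries 2 collagens were higher, 1 of the basement membrane and 1 other. With no filter, and with no trend, 1 fibrillar collagen was lower, and with no filter 1 other collagen was. Counting type IV alone as basement membrane changed no class count of calls by adjusted p. The 2 lower calls were then 12.5% of 16 other collagens tested. At limma's unadjusted p under 0.05, lower members went from 1 to 0 in the basement membrane class and from 3 to 4 in the other class. Lower members with separate groups went from 1 to 0 and from 2 to 3. The Col4a2 difference of 0.11 became -0.12 without cKO 1, -0.17 without cKO 2 and -0.13 without control 2, within a range of -0.17 to 0.63, and was never called.

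Synthesis genes numbered 2 higher and 4 lower in the 4 libraries, with 1 to 4 lower when 1 library was left out. Processing genes numbered 2 higher in the 4 libraries and 1 lower with a filter at 5 FPKM. Receptors numbered 2 lower in the 4 libraries, 0 with no filter, and 0 to 1 with 1 library left out. Proteoglycans numbered 1 higher in the 4 libraries and 0 to 1 with 1 library left out, and 1 lower with a filter at 5 FPKM, no filter, pseudocounts of 0.1 or 0.01, limma-voom or the block, or 1 to 2 with 1 library left out. Basement membrane partners numbered 3 higher in the 4 libraries, 2 with limma-voom or the median of ratios, 0 with the block and 0 to 2 with 1 library left out, and 1 lower with no filter or no trend and 1 to 2 with 1 library left out. The causes were not tested.

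The replicate numbers did not pair the libraries: deviations of same-numbered libraries correlated at -0.31, 0.08 and -0.26 for numbers 1, 2 and 3. With the replicate block the collagens still numbered 0 higher and 2 lower, and Podn, Fras1 and Ash2l were no longer called (adjusted p = 0.0924, 0.0802 and 0.0613). Differences of like size fell on either side of the threshold: Col1a1, at 1.35 with an SE of 0.50, was not called, whereas P3h4, at 1.32 with an SE of 0.18, was.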
